A study of Mus musculus with 7 samples.

Results

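The bombesin family of the mouse holds a pair of peptide genes and 3 receptor genes, and all 5 were found in the deposited table of 55384 genes by their Ensembl identifiers. The ligand genes are Nmb, which encodes neuromedin B, and Grp, which encodes gastrin-releasing peptide. The receptor genes are Nmbr, which encodes the neuromedin B receptor, Grpr, which encodes the receptor for gastrin-releasing peptide, and Brs3, which encodes bombesin receptor subtype 3, an orphan receptor with no established natural ligand. The family was chosen by its CPM levels in the E2 and GDX libraries, which were known beforehand, so the levels and fold changes of the 5 genes are given as a description, with no p-value.

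The study measured RNA on tagged ribosomes pulled down from kisspeptin neurons in the AVPV (anteroventral periventricular nucleus) at the front of the hypothalamus. All animals were female Kiss1Cre+/Rpl22HA+/+ mice on a C57BL/6 background, in which cells with Kiss1-driven Cre recombinase carry an HA tag on the ribosomal protein Rpl22. There were 3 E2 libraries from estradiol-treated females and 4 GDX libraries from ovariectomized females without estradiol, and each library pooled punches from 4 brains, so replicates and p-values measure the spread between pools. Whether the E2 females were also ovariectomized, and the dose and duration of estradiol, are not given in the sources used here. Because Cre is driven from the Kiss1 gene itself, cells with other past or present Kiss1 expression could also be tagged, and fewer cells of a type cannot be told apart from less RNA per cell in such pools.

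Neuromedin B and gastrin-releasing peptide are small secreted peptides related to bombesin, a peptide first found in frog skin. They are cut from larger precursors and carry an amide at the C-terminus, which they need for activity. Their receptors couple to G proteins of the Gq class, which activate phospholipase C, release calcium from internal stores and activate protein kinase C. In the brain these peptides are known for roles in satiety, itch, sighing and, for gastrin-releasing peptide, signalling within the suprachiasmatic nucleus. Brs3 is known from knockout mice for its role in energy balance and body temperature.

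The libraries held totals of 30929883 to 33438199 expected counts in E2 and 29207544 to 36213127 in GDX. Levels are in CPM, expected counts scaled to library size with TMM factors, and 3 counts correspond to 0.0925 to 0.0991 CPM in E2 libraries and 0.0818 to 0.101 CPM in GDX libraries. The AVPV kisspeptin markers Kiss1, Th, Esr1, Pgr, Gad2 and Slc32a1 were present in every library, with a summed level of 2620 to 2730 CPM in E2 and 1600 to 1900 CPM in GDX. They did not move together. Kiss1, Th, Pgr and Gad2 were higher in every E2 library than in any GDX library. Slc32a1 (365 to 448 CPM in E2, 369 to 398 in GDX) and Esr1 (183 to 214 in E2, 210 to 292 in GDX) overlapped. The arcuate kisspeptin markers also include Kiss1. Among them Tac2 and Tacr3 overlapped between the groups. Pdyn was lower in every E2 library (90.1 to 118 CPM) than in any GDX library (138 to 203 CPM). RNA of other cells was present too. The 6 astrocyte markers summed to 531 to 629 CPM in E2 and 769 to 2680 CPM in GDX, and the 5 endothelial markers to 85.8 to 146 CPM in E2 and 155 to 388 CPM in GDX, in both cases without overlap between the groups. The 5 ependymal markers did not overlap either, with 26.4 to 54.1 CPM in E2 and 54.8 to 105 CPM in GDX, and 1 of them, Rarres2, was lower in E2 (log2 fold change -1.04 ± 0.23, adjusted p = 0.0356, edgeR). Oligodendrocyte and microglial sums overlapped, and no marker of these types, of astrocytes or of endothelial cells passed the test. The mean log2 level over astrocyte, oligodendrocyte, microglial and endothelial markers was 5.51 to 5.78 in E2 and 5.88 to 6.60 in GDX. GDX replicates 1 and 4 were highest, and ependymal markers are not part of this level. Since it did not overlap between the groups, fits with it as a covariate cannot separate it from the hormone status.

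Of the 5 genes, Nmb and Grp were higher and Brs3 was lower in E2, while Nmbr and Grpr did not pass the threshold. The threshold was an adjusted p under 0.05 over all 18282 genes tested, in the edgeR quasi-likelihood test. It was passed by 3.88% of all genes tested, with 2.55% higher and 1.33% lower in E2. Nothing is read from the count of 3 among 5, since the genes were chosen with it known. All 5 genes passed the filter on low counts. For 4 of them no E2 library lay within the range of GDX, a separation seen in 16.5% of all genes tested.

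Because the results turn on Nmb and Brs3, the 250 bases before their RefSeq starts (GRCm38.p6) are shown here, 5′ to 3′ on the strand of the gene, with GC boxes (GGGCGG) in capitals. The Nmb stretch lies at chr7:80905063-80905312 on the minus strand and the Brs3 stretch at chrX:57042824-57043073 on the plus strand.
Nmb: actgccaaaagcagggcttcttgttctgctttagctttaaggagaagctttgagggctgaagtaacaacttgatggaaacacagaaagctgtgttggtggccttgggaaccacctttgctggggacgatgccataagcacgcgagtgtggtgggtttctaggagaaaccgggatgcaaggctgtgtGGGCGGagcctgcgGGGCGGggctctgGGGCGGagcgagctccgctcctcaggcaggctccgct
Brs3: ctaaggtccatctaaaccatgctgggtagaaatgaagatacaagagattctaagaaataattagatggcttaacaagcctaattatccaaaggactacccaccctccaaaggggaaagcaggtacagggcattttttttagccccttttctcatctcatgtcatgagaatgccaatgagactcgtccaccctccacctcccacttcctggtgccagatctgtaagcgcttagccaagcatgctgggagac
The Nmb stretch is 58.0% G and C and the Brs3 stretch 46.0%. GC boxes begin 64, 50 and 37 bases before the Nmb start, and the Brs3 window has none.

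Motifs were searched on both strands over windows from 250 bases before to 50 after the start, for Nmb, Brs3, Nmbr and Grpr (the Grp window was not used here). The GC box was found in the windows of Nmb and Nmbr, against 35.7% of 32851 windows of all genes. The palindromic estrogen response element, GGTCA followed by 3 free bases and its reverse complement, was in none of the 4 windows and in 0.07% of all windows. Its half-site GGTCA was in 40.5% of all windows and, among the 4, in that of Nmbr, beginning 33 bases after the start. The AP-1 site TGANTCA (7.81% of all windows), the cAMP response element TGACGTCA (1.79%) and the TATA box TATAAA (13.6%) were in none of the 4. These are matches of letters within short windows, and binding by any factor was not measured.

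Nmb, the neuromedin B gene (ENSMUSG00000025723, chromosome 7, 80902227 to 80905076, minus strand, GRCm38), had 232, 240 and 186 CPM in E2 replicates 1 to 3, against 4.09, 4.93, 4.67 and 4.52 CPM in GDX replicates 1 to 4. All E2 libraries were far above all GDX libraries, and the GDX libraries lay close together. These levels rest on 5632 to 7539 expected counts per E2 library and 147 to 170.17 per GDX library. The log2 fold change, E2 over GDX, was 5.59 ± 0.12 (SE), and it was the 6th highest of the 18282 genes. Scaled to its 793 bases of annotated exon, Nmb in E2 averaged 277 CPM per kb, above 99.4% of tested genes with a known length, and in GDX 5.74 CPM per kb, above 59.6% of them.

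Grp, the gastrin-releasing peptide gene (ENSMUSG00000024517, chromosome 18, 65872820 to 65886596, plus strand), had 12.1, 14.8 and 16.1 CPM in E2 replicates 1 to 3, against 7.25, 4.43, 6.65 and 5.0 CPM in GDX replicates 1 to 4. The lowest E2 library was above the highest GDX library, with a much smaller gap than for Nmb. The log2 fold change was 1.29 ± 0.20, and 271st from the highest. Gastrin-releasing peptide is also made in the suprachiasmatic nucleus, which lies near the AVPV, so that nucleus's markers bear on this level. The 8 suprachiasmatic markers (Avp, Vip, Nms, Six6, Six3, Lhx1, Rorb and Prokr2) summed to 115 to 135 CPM in E2 and 126 to 181 CPM in GDX, with overlap. None of them passed the test in either direction, but they did not move together. Vip was higher in every E2 library (8.57 to 11.5 CPM) than in any GDX library (1.98 to 8.3 CPM). Rorb (38.7 to 49.1 CPM in E2, 50.7 to 59.3 in GDX) and Prokr2 (2.14 to 4.28 in E2, 5.94 to 7.01 in GDX) were lower. Avp, Nms, Six6, Six3 and Lhx1 overlapped between the groups. No marker was at 0 in all libraries, and the part of this nucleus in the Grp level was not tested.

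**Figure D1:**
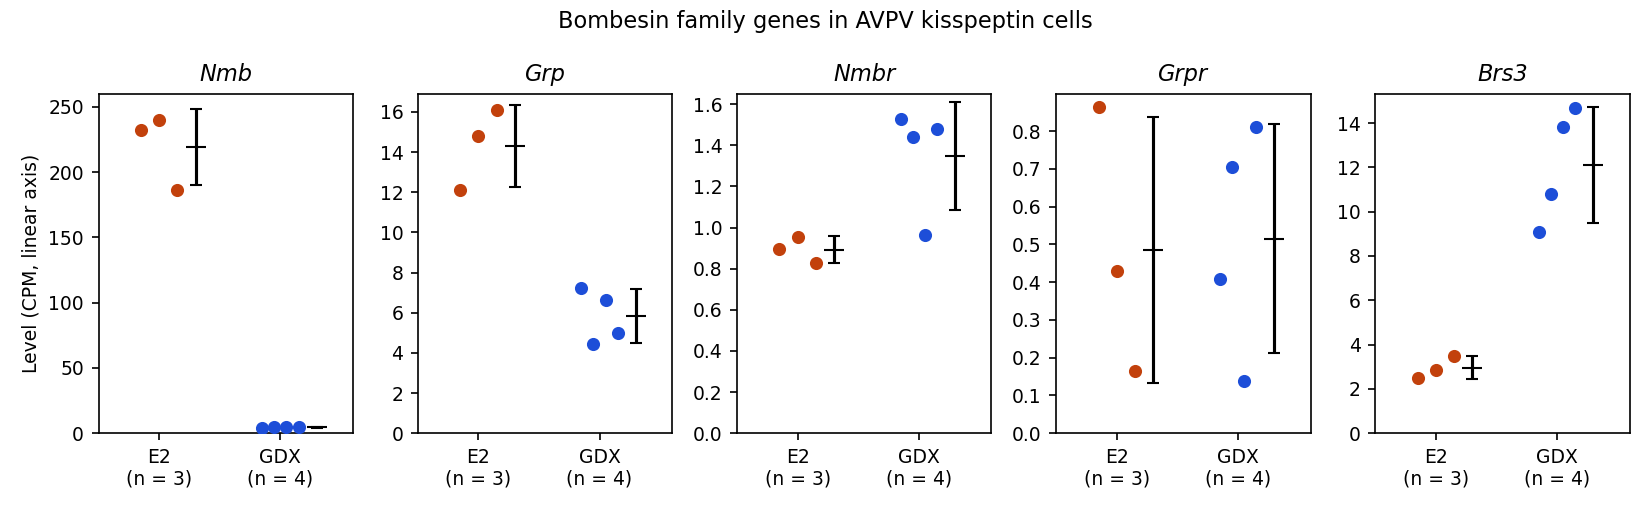
Level in CPM (linear axis from 0, a separate scale for each gene) of the 5 bombesin family genes in E2 and GDX libraries, with 1 point per library and the mean with its SD beside the points. Nmb and Grp are higher in every E2 library than in any GDX library, Nmbr and Brs3 are lower, and Grpr overlaps.

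Brs3, the orphan receptor gene (ENSMUSG00000031130, chromosome X, 57043074 to 57048758, plus strand), had 2.50, 2.87 and 3.50 CPM in E2 replicates 1 to 3, against 9.08, 10.8, 13.8 and 14.7 CPM in GDX replicates 1 to 4. Every E2 library was below every GDX library. The log2 fold change was -2.04 ± 0.23, the 107th lowest, and the GDX mean was 4.10-fold the E2 mean. The summed astrocyte, endothelial and ependymal marker levels given above were likewise below those of GDX in every E2 library. Within GDX, replicate 1 had the highest non-neuronal marker level and the lowest Brs3 level, and replicate 4 had the next highest marker level and the highest Brs3 level. With the non-neuronal marker level as a covariate the log2 fold change of Brs3 was -2.10, and without GDX replicates 1 and 4, a choice made after the data were seen, it was -2.07. Since that marker level was lower in all E2 libraries than in any GDX library, the covariate and the hormone status cannot be told apart. The part of other cells in the Brs3 level was not tested.

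Nmbr, the neuromedin B receptor gene (ENSMUSG00000019865, chromosome 10, 14705591 to 14770850, plus strand), was low throughout, with 0.894, 0.956 and 0.826 CPM in E2 replicates 1 to 3 and 1.53, 1.44, 0.962 and 1.48 CPM in GDX replicates 1 to 4. The highest E2 library was just below the lowest GDX library. The log2 fold change of -0.60 ± 0.39 did not pass the threshold, and with the non-neuronal marker level as a covariate it was -0.30. These levels rest on 25 to 29 expected counts in E2 and 35 to 56 in GDX. On the opposite strand, exons of the long noncoding gene B230364G03Rik cover 504 bases of Nmbr exons, 15.6% of their length, and in these unstranded libraries reads of the 2 genes cannot be told apart there. B230364G03Rik itself was listed at no more than 0.123 CPM in any library.

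Grpr, the gene of the gastrin-releasing peptide receptor (ENSMUSG00000031364, chromosome X, 163513904 to 163549677, minus strand), had 0.863, 0.429 and 0.165 CPM in E2 replicates 1 to 3 and 0.409, 0.704, 0.137 and 0.810 CPM in GDX replicates 1 to 4. The groups overlapped over most of their ranges, and the log2 fold change of -0.08 ± 0.74 had an error too large to tell a rise from a fall. Counts were 5 to 28 per E2 library and 5 to 29 per GDX library. The direction turned when single libraries were left out, with values between -0.78 without E2 replicate 1 and 0.33 without E2 replicate 3.

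Levels of different genes can be compared only per length, and the scale used here is CPM per kb of annotated exon. In E2 the means were 277 ± 36.6 for Nmb, 9.70 ± 1.37 for Grp, 1.07 ± 0.183 for Brs3, 0.276 ± 0.0202 for Nmbr and 0.192 ± 0.140 for Grpr (SD, n = 3). The first 4 did not overlap, and Nmbr and Grpr did. In GDX the means were 5.74 ± 0.444 for Nmb, 4.37 ± 0.946 for Brs3, 3.95 ± 0.904 for Grp, 0.419 ± 0.0815 for Nmbr and 0.204 ± 0.120 for Grpr (SD, n = 4). Nmb and Brs3 overlapped in range there, as did Brs3 with Grp and Nmbr with Grpr. Nmbr exons include noncoding upstream transcripts, and the length of the longest coding transcript was used instead, a choice made after the data were seen. Nmbr then averaged 0.558 in E2 and 0.846 in GDX and no longer overlapped Grpr. With that length Grp averaged 4.42 and Brs3 4.37 in GDX, so their order in GDX depends on the length used. Nmb (5.8 to 6.99) and Brs3 (3.28 to 5.31) then no longer overlapped in GDX.

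**Figure D2:**
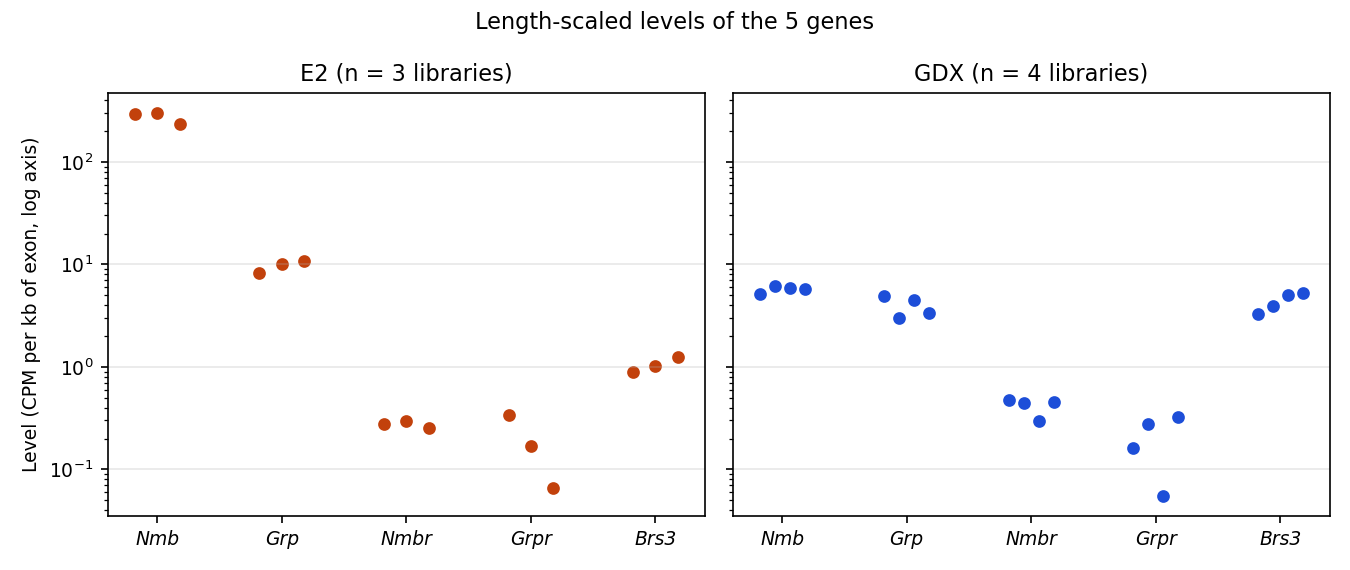
Level in CPM per kb of annotated exon (log axis) of each gene, with 1 point per library, in E2 (left) and GDX (right). In E2 the genes spread from 277 CPM per kb for Nmb to 0.192 for Grpr, whereas in GDX Nmb, Grp and Brs3 lie between 3.0 and 6.22.

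Nmb made up nearly all of the family's ligand RNA in every E2 library. Nmb made up 95.6% to 97.3% of the summed per-length level of both ligands in E2, against 51.2% to 67.5% in GDX. The per-length level of Nmb was 21.6 to 35.7 times that of Grp in E2 and 1.05 to 2.07 times in GDX. The 3 receptor genes summed to 1.5 to 1.58 CPM per kb in E2 and 3.91 to 6.09 in GDX. Brs3 held 59.3% to 79.7% of that receptor sum in E2 and 83.8% to 93.4% in GDX. With the length of the longest coding transcript, that share was 50% to 68.5% in E2 and 74.6% to 88.4% in GDX. Ligand over receptor RNA, per length, was 155 to 208 in E2 and 1.49 to 2.57 in GDX. These ratios follow from the levels above and are not separate evidence. They concern RNA in the pulldowns, which also held RNA of other cells, and receptor RNA in cells that receive the peptides was not measured.

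The annotation places Sec11a, which encodes a catalytic subunit of the signal peptidase complex, next to Nmb on the same strand. A noncoding Sec11a transcript, Sec11a-207, ends in an exon of 163 bases inside the first exon of Nmb (chr7:80904889-80905051, minus strand), 20.6% of the annotated Nmb exon bases. The remaining exons of that transcript and all exons of the coding Sec11a transcripts lie outside Nmb. The shared exon includes the start of the Nmb coding sequence, shown here because reads from it fit both genes, with the Nmb start codon in capitals (chr7:80904889-80904977, GRCm38, minus strand).
Shared coding stretch: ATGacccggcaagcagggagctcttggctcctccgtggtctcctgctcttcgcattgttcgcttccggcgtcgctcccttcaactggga
Where reads fit several genes, expected counts are divided among them and need not be whole. In GDX replicate 1 Nmb had 149.58 and Sec11a 1415.42, which sum to the whole number 1565. Nmb had a fractional count in 3 of the 7 libraries, all of them GDX, and the sum of both genes was whole in 6 libraries.

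Sec11a, whose own change was not used to choose the family, was also higher in E2. It had 61.6, 58.3 and 49.5 CPM in E2 replicates 1 to 3, against 38.6, 34.0, 42.2 and 39.7 CPM in GDX replicates 1 to 4, without overlap. The log2 fold change was 0.55 ± 0.11, with an adjusted p of 0.0114 in the edgeR quasi-likelihood test. The call was lost without E2 replicate 1 (adjusted p = 0.0904), without E2 replicate 2 (0.0683) and with the non-neuronal covariate (0.262), and whether reads of Nmb contribute to it was not tested.

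Adding both genes gives a level that does not depend on how reads were divided between them. In E2 replicate 1 the sum, 9538.62 expected counts, was not whole, so reads shared with further genes are not covered. The sum was 276 ± 35.0 CPM in E2 (SD, n = 3) and 43.2 ± 3.29 CPM in GDX (SD, n = 4), a log2 fold change of 2.68 ± 0.10. The lowest Nmb level in E2, 186 CPM, was above the highest sum of both genes in GDX, 46.8 CPM. That Nmb level itself still depends on the division. Nmb held 79.0% to 80.4% of the summed counts in E2 and 9.56% to 12.7% in GDX.

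**Figure D3:**
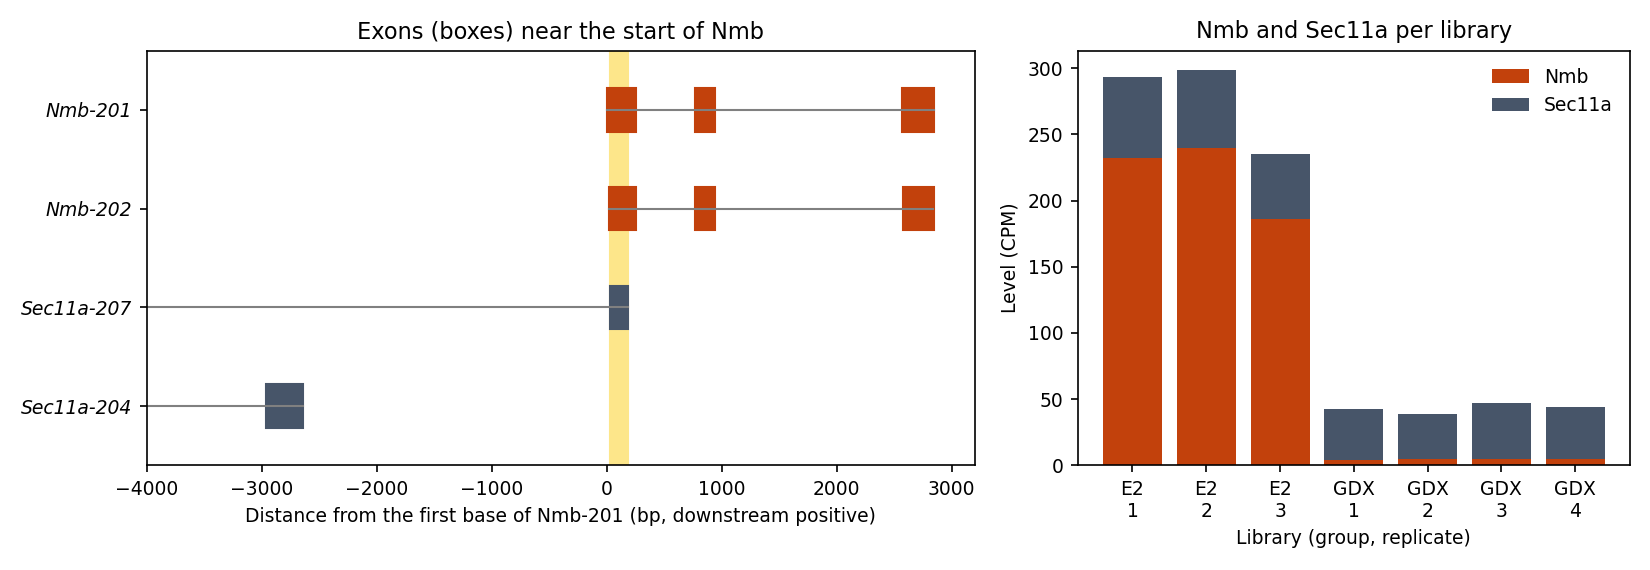
Left, exons (boxes) of Nmb transcripts and of the ends of a pair of Sec11a transcripts by distance in bp from the first base of Nmb-201, with the shared 163 bases shaded. Right, stacked levels in CPM of Nmb and Sec11a in each library, where the E2 libraries sum to 236 to 298 CPM and the GDX libraries to 39.0 to 46.8.

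Genes next to the family members were examined for change across the locus, taking on each side the nearest tested protein-coding gene that does not overlap the member, so that Sec11a, which overlaps Nmb and passed, is not among them. Of these 10 genes, 9 did not pass, with log2 fold changes of -0.16 to 0.15 and adjusted p values (edgeR) of 0.262 to 0.986. These 9 lay 31 to 481396 bases from the members. The threshold was passed by 3.88% of all genes tested, and nothing is read from so small a count. Fhl1, 249728 bases from Brs3, did not pass but had 168 to 181 CPM in E2 and 185 to 206 CPM in GDX. Such a separation without overlap was seen in 16.5% of all genes tested. Wdr73, which lies 958 bases beyond the end of Nmb, had 30.9 ± 0.910 CPM in E2 (SD, n = 3) and 28.4 ± 4.13 CPM in GDX (SD, n = 4), and Htatsf1, 4825 bases beyond Brs3, had 113 ± 3.58 and 119 ± 9.97 CPM with the same n. The exception was Cited2, a transcriptional coregulator gene 2952368 bases from Nmbr. It fell to 32.6 ± 2.37 CPM in E2, against 60.2 ± 6.27 CPM in GDX, without overlap between the groups (log2 fold change -0.89 ± 0.10, adjusted p = 0.000402, edgeR).

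The genes whose pattern over the 7 libraries was nearest to that of each member were found by the root mean square difference of log2 CPM, each gene centred on its own mean, among 11570 genes of at least 5 CPM on average. Since the groups differ in the members, nearness mostly reflects a like difference between E2 and GDX, and no test applies. For Nmb the nearest was Aqp5, a water channel gene (0.378 log2 units), followed by C1ql2, a gene of a secreted synapse organiser (0.439). The next, the ghrelin receptor gene Ghsr, Creb3l1 and Sytl4, were much farther, at 1.15 to 1.17. For Grp the nearest were Lamp5, Cyp2s1, the peptide gene Cartpt, the clock-related gene Npas2 and Gadd45a, at 0.154 to 0.219. For Brs3 they were Mxra7, the transcription factor gene Sox3, the orphan receptor gene Pgr15l, Pcdhac1 and Bpifb1, at 0.184 to 0.260. For Nmbr, at 0.071 to 0.111, they were Lpcat3, Helz2, Gpc4, Mcam and Pld2. With 1 library left out, at least 4 of the 5 nearest genes were shared for Nmb and Brs3, and at least 2 of the 5 for Grp and Nmbr.

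Receptors of this family act through Gq, and the 25 genes listed for that cascade were all tested. Of these 2 were higher and 1 was lower in E2, so that 12% passed, against 3.88% of all genes. The median log2 fold change of the list was 0.03 and that of all genes tested 0.00. This list and those below were chosen with earlier results of these data known, so nothing is read from the shares that passed. Prkce, which encodes protein kinase C epsilon, had 231 to 262 CPM in E2 and 149 to 174 CPM in GDX (log2 fold change 0.62 ± 0.08, adjusted p = 0.000607, edgeR). Stim2, a sensor of calcium in the endoplasmic reticulum, had 67.2 to 74.4 CPM in E2 and 49.1 to 53.6 CPM in GDX (0.46 ± 0.08, adjusted p = 0.00607, edgeR). Itpr3, a calcium release channel opened by inositol trisphosphate, fell to 6.23 to 7.23 CPM in E2, against 9.23 to 22 CPM in GDX (-1.17 ± 0.25, adjusted p = 0.0260, edgeR). Its highest GDX levels were in replicates 1 and 4, which also had the highest astrocyte markers. The part of other cells in its level was not tested. With the non-neuronal covariate, which cannot be told apart from the hormone status, its log2 fold change was -0.51 (adjusted p = 0.670, edgeR). Its call was also lost without E2 replicate 1, 2 or 3 or GDX replicate 1 (adjusted p = 0.0738 to 0.141), at log2 fold changes of -1.23 to -1.12, and without both GDX replicates 1 and 4 (0.0709), at -0.77. That of Stim2 was lost without E2 replicate 1 (0.0522, log2 fold change 0.42) and with the covariate (0.178, log2 fold change 0.44). The Gq subunit genes Gnaq and Gna11 did not pass, at -0.01 ± 0.08 and 0.03 ± 0.07, and both turned sign under some alternatives. The 3 calls went to 1 without E2 replicate 1 and to 5 without GDX replicate 4.

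Receptor kinases, arrestins and RGS proteins can end signalling by receptors coupled to G proteins, not only Gq, and 17 of 18 listed genes were tested. Of these 1 was higher and 2 were lower in E2 (17.6%, against 3.88% of all genes), with a median log2 fold change of -0.04. Rgs2, which acts on Gq, fell to 32.7 to 37.9 CPM in E2, against 49.3 to 60.4 CPM in GDX (-0.66 ± 0.10, adjusted p = 0.00294, edgeR). Rgs16 fell to 34.2 to 43.5 CPM in E2, against 51.9 to 91.7 CPM in GDX (-0.95 ± 0.18, adjusted p = 0.0210, edgeR). Rgs4 rose to 203 to 253 CPM in E2, against 160 to 191 CPM in GDX (0.37 ± 0.09, adjusted p = 0.0485, edgeR). The receptor kinase genes Grk2 and Grk3 did not pass, at 0.02 ± 0.08 and 0.08 ± 0.09, and Grk2 turned sign under some alternatives. The 3 calls went to 1 without E2 replicate 1, E2 replicate 2 or GDX replicate 2, and Rgs2 kept its call in all alternatives run. Rgs16 did not pass without E2 replicate 1, 2 or 3 or GDX replicate 2 or 4 (adjusted p = 0.05 to 0.123), nor with limma-voom (0.0675), at log2 fold changes of -1.05 to -0.83. It passed with the non-neuronal covariate (-1.37, adjusted p = 0.00156, edgeR) and without both GDX replicates 1 and 4 (-1.20, adjusted p = 6.43e-06, edgeR). Rgs4 did not pass without E2 replicate 1 or 2 or GDX replicate 1 or 2 (0.116 to 0.247), with the non-neuronal covariate (0.429) or with DESeq2 size factors (0.0506), at log2 fold changes of 0.30 to 0.37.

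Of 15 genes listed for the maturation of peptide precursors 14 were tested. Of these 1 was higher and none was lower in E2 (7.14%, against 3.88% of all genes), with a median log2 fold change of 0.14. The gene that passed was Ctsl, which encodes cathepsin L, a protease that can also cut peptide precursors, with 189 to 229 CPM in E2 and 142 to 173 CPM in GDX (0.42 ± 0.09, adjusted p = 0.0241, edgeR). The prohormone convertase genes Pcsk1 and Pcsk2 did not pass, at 0.24 ± 0.11 and 0.16 ± 0.09. Pam, the amidating enzyme gene, was named after its values were seen. It had 429 to 504 CPM in E2 and 361 to 428 CPM in GDX and did not pass (0.30 ± 0.08, adjusted p = 0.0814, edgeR). The call of Ctsl was lost without E2 replicate 1 or 2 or GDX replicate 1 or 2 (adjusted p = 0.0744 to 0.136, log2 fold change 0.35 to 0.41) and with the non-neuronal covariate (0.488, log2 fold change 0.31), and in this list 2 to 3 genes passed without GDX replicate 4 or 3.

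**Figure D4:**
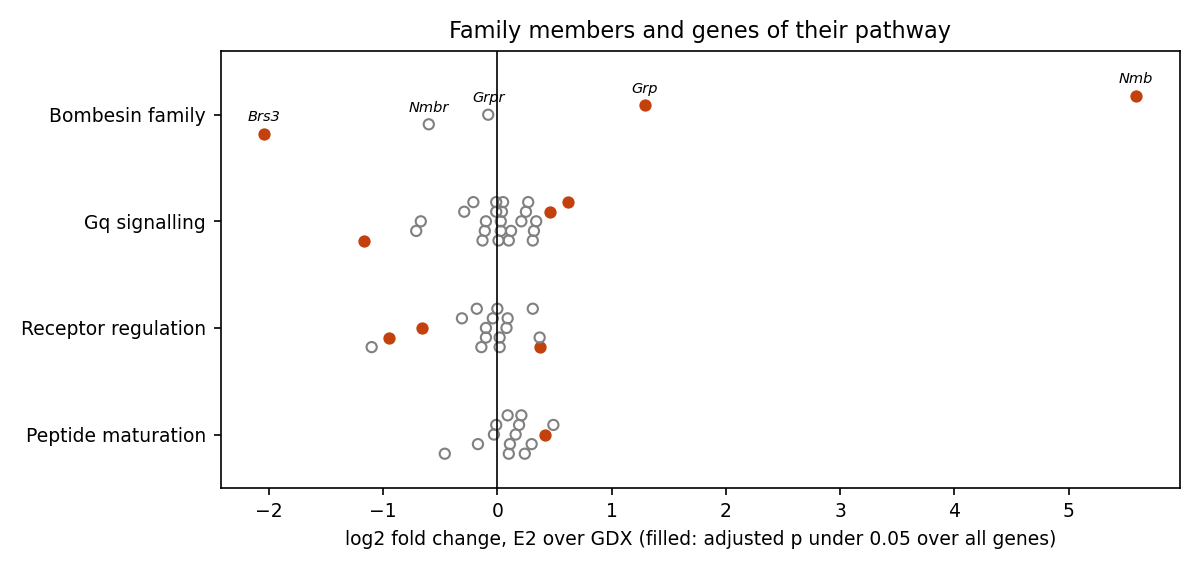
Log2 fold change, E2 over GDX, of the bombesin family and of the 3 lists of pathway genes, with 1 point per gene spread vertically for legibility and filled where the adjusted p over all genes was under 0.05. Nmb at 5.59, Grp at 1.29 and Brs3 at -2.04 lie outside the range of the lists, which run from -1.17 to 0.62. The members were chosen with their values known, so nothing is read from this.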

How the data were processed

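Ribosome-bound RNA was measured in 3 E2 and 4 GDX libraries. The authors deposited expected counts per gene, of which 33.1% of the non-zero values were not whole. Trimmomatic 0.38, STAR 2.6.0a, RSEM 1.3.0 and mm10 are named per the submitters' processing notes, without roles or order, and the gene annotation is not given in the sources used here. Per the labels' protocols the libraries were unstranded and made from polyadenylated RNA. Symbols and coordinates came from GENCODE vM21 on GRCm38 (55117 of 55384 identifiers matched) and promoter sequences from RefSeq (GRCm38.p6).

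Expected counts were rounded and fitted in R 4.3.3 with edgeR 4.0.16 by quasi-likelihood, with TMM factors, robust dispersions, a prior count of 0.125 and filterByExpr (minimum count 10, minimum total 15). Adjusted p is Benjamini-Hochberg over 18282 genes. DESeq2 1.42.0 and limma 3.58.1 were alternatives, and all were tested on simulated data. Floors of 3 counts cover counting error only.

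The members and gene lists were chosen with earlier results of these data known. Genes named were the members, genes sharing exon bases or lying next to them, the 5 nearest patterns per member of at least 1 CPM, and from each list up to 4 called genes and the first 2 not called.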

Additional observations from a re-analysis of the deposited data

Results flagged for a closer look

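In 4 of 30 genes examined, counting B230364G03Rik, 1 of the 4 GDX libraries lay far from the other 3 by Dixon's test on CPM. Chance alone gives this in about 5% of such groups. Nmbr had 0.962 CPM in GDX replicate 3, against 1.44 to 1.53 in the others, and without that library its log2 fold change was -0.73. B230364G03Rik, on the strand opposite Nmbr, had 0.0824 CPM in GDX replicate 3 and was listed at 0 in the other GDX libraries. That value is 3 counts, the floor of the library, and against 3 values at 0 any value would have stood apart, so nothing is read from it. Grk2 had 183 CPM in GDX replicate 4, against 210 to 213 CPM. Pcsk2 had 270 CPM in GDX replicate 1, against 326 to 335 CPM.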

How the results depend on the processing

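The same number of members, 3, passed under all 15 alternatives, and the log2 fold changes ranged from 1.18 to 1.5 for Grp and from -2.18 to -1.91 for Brs3. Nmb gave 5.39 with the non-neuronal covariate, 2.68 with Sec11a counts added, and 5.51 to 5.69 with libraries left out. Nmbr gave -0.30 with the covariate, and -0.73 to -0.43 with libraries left out. A mean of at least 5 CPM leaves out Nmbr and Grpr, and DESeq2 gave Grpr no adjusted p. Counts of all genes higher and lower in E2 (467 and 243) became 722 and 887 without a filter, 710 and 399 with limma-voom, 191 and 84 with the covariate, 675 and 725 with DESeq2, and 268 to 591 and 96 to 428 with libraries left out. Calls in the Gq list (3) became 1 with the covariate and 1 to 5 with libraries left out, and in the receptor regulation list (3) 1 to 3. The maturation list (1) had 3 calls without a filter and with DESeq2, 2 with limma-voom, 0 with the covariate, and 0 to 3 with libraries left out, among these 2 without GDX replicates 1 and 4, which was chosen after seeing the data. Sec11a was at 0.51 with the covariate (adjusted p = 0.262) and 0.48 to 0.63 with libraries left out. The cause of these changes was not tested.

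Deviations of same-numbered libraries from their group means correlated at -0.0205, -0.038 and -0.0555. No shared pattern was seen, but so few libraries cannot settle whether replicate numbers pair them. With the replicate number as a block 421 genes were higher and 191 lower in E2, Grp was at 1.25, Brs3 at -1.92 and Grpr at 0.21, and the calls of Rgs4 (0.38, adjusted p = 0.0845) and Ctsl (0.44, 0.053) were lost. Nmbr and Grpr rest on 5 to 56 expected counts per library, which limits their precision. Genes near 0 and not called turned sign. Lman1 was at 0.03 with limma-voom, 0.09 with the block, 0.12 with the covariate and -0.07 to 0.11 with libraries left out, Gnaq at 0.01, 0.04, 0.11 and -0.05 to 0.05 (0.06 without both GDX replicates 1 and 4), and Grk2 at -0.02, -0.03, -0.01 and -0.04 to 0.06. Wdr73 was at -0.11 and Pcsk2 at -0.03 with the covariate, and with libraries left out Gna11 was at -0.02 to 0.08 and Wdr73 at -0.01 to 0.23.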
